A study of Mus musculus with 8 samples.

Results

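The RNA-seq counts were examined for 8 genes of tendon and of the junction between tendon and muscle: the transcription factors Scx and Mkx, the membrane protein Tnmd, and the matrix genes Chad, Comp, Thbs4, Cilp and Cilp2. The genes were chosen by name, and their rows were found by Ensembl identifier among the 22880 genes counted in each mouse. All 8 were present and all 8 passed the filter on low counts, with between 148 (Mkx, control 3) and 101451 (Thbs4, Dnm2 +/K562E mouse 2) reads per gene and mouse. The samples were soleus muscles of 4 control mice (Dnm2 +/+) and 4 Dnm2 +/K562E mice, all male, 2 months old and on the C57BL/6 background, with 1 library per mouse. The K562E allele is a germline point mutation in the endogenous Dnm2 gene, which also retains a LoxP site in an intron, and it is therefore present in every tissue, tendon and muscle included. Dynamin 2, its product, is a large GTPase that cuts vesicles from membranes.

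Tendon is made by tenocytes, fibroblasts that lie between rows of collagen fibrils. SCX and MKX are transcription factors that direct tendon differentiation, and Tnmd (tenomodulin) is a classical target of SCX and a marker of mature tenocytes. Around the fibrils lie small adhesive proteins such as chondroadherin (Chad), the pentameric thrombospondins COMP and thrombospondin 4 (Thbs4), and the cartilage intermediate layer proteins Cilp and Cilp2. Thrombospondin 4 is also known at the myotendinous junction, where muscle fibres insert into tendon, and muscle fibres can produce it themselves.

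Positions are given for GRCm38 in the GENCODE annotation. Scx is on chromosome 15 (76457452 to 76459458) within the span of Bop1 on the other strand. Tnmd lies on chromosome X (133850980 to 133865577) and Chad on chromosome 11 (94565047 to 94569127), the latter within the span of Acsf2, also on the opposite strand. Comp (70373558 to 70382066) and Cilp2 (69880369 to 69887687) are both on chromosome 8. Thbs4 is on chromosome 13 (92751590 to 92794818) and Cilp on chromosome 9 (65265180 to 65280605). No exon of the 8 genes overlapped an exon of another counted gene. Mkx shared 5.53% of its 31-base stretches with other genes, and the other 7 genes shared none, so that reads of Comp and Thbs4, or of Cilp and Cilp2, could be told apart.

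The bases in front of the start sites of 4 of the genes are shown because these genes cover the range of responses described below: the largest increases (Cilp and Thbs4), a moderate one (Tnmd) and none detected (Chad). They are the 250 bases upstream of the RefSeq start site in GRCm38.p6, read in the direction of the gene, with each E-box in capitals. The E-box, written CANNTG, reads the same on both strands and is the kind of site bound by basic helix-loop-helix factors, the class to which SCX belongs. Promoters of 5 of the 8 genes were examined gene by gene, and those of Scx, Mkx and Comp were not. The RefSeq start of Tnmd differs slightly from the GENCODE start given above.
Cilp, chr9:65264930-65265179, plus strand: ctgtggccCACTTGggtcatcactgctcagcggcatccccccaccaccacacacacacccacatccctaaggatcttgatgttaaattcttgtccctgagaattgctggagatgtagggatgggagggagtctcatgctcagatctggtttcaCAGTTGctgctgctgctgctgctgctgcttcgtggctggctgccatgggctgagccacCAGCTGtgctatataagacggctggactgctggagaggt
Thbs4, chr13:92794819-92795068, minus strand: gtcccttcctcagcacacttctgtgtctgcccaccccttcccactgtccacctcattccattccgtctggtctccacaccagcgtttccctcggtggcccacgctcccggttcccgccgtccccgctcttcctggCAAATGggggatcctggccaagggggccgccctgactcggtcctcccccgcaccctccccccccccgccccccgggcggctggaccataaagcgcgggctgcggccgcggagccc
Tnmd, chrX:133850758-133851007, plus strand: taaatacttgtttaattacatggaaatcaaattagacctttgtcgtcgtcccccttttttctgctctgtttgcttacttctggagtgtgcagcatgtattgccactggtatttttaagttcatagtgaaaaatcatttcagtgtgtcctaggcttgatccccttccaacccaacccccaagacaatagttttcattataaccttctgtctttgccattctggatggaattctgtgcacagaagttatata
Chad, chr11:94564797-94565046, plus strand: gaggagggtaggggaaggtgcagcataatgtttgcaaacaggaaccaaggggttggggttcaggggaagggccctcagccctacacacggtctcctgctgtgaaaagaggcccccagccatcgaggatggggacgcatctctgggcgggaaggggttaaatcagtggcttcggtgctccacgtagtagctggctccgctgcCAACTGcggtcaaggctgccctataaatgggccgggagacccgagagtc
Cilp had 3 E-boxes in this window, Thbs4 and Chad had 1 each and Tnmd had 0, and 66.2% of all 32851 promoters searched over the same length held at least 1. A match describes the sequence only.

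Depth was between 33407430 and 48832814 counts per mouse, and levels are given as normalized CPM, in which counts are divided by the TMM-scaled library size of the mouse. The slow myosin Myh7, which marks soleus, was at 5808 to 6384 CPM in controls and 3694 to 4643 CPM in Dnm2 +/K562E mice. Control 4 stood apart in the fast myosin Myh4, at 3134 CPM against 162.8 to 426.4 CPM in the other controls. A gene was called when its adjusted p was under 0.05 in edgeR's quasi-likelihood test and its log2 fold change was 0.58 or more in either direction. By this rule 12.9% of the 14001 tested genes were called higher in Dnm2 +/K562E soleus and 7.85% lower, or 20.7% in all. Higher genes made up 62.2% of the calls, and 83.6% when libraries were scaled by their size alone. Total Dnm2 RNA, which adds both alleles, was 59.2 to 68.8 CPM in controls and 70.3 to 76.1 CPM in Dnm2 +/K562E mice. It did not overlap between the genotypes and was not called (log2 difference 0.15, edgeR adjusted p = 0.0909).

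Of the 8 tendon genes, 7 were called higher in Dnm2 +/K562E soleus and 1, Chad, was not called. The 7 genes also did not overlap between the genotypes, which over all tested genes held in this direction for 20.6%. The median log2 fold change of the 8 genes was 1.19, beside 0.01 over all tested genes. The increases were far from equal: Cilp and Thbs4 rose 8.42-fold and 6.45-fold in their mean CPM, and Scx, Mkx, Tnmd, Comp and Cilp2 rose between 1.97-fold and 2.68-fold. In bulk muscle, more tendon tissue or more tenocytes in a sample and more RNA per cell cannot be told apart.

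**Figure D1:**
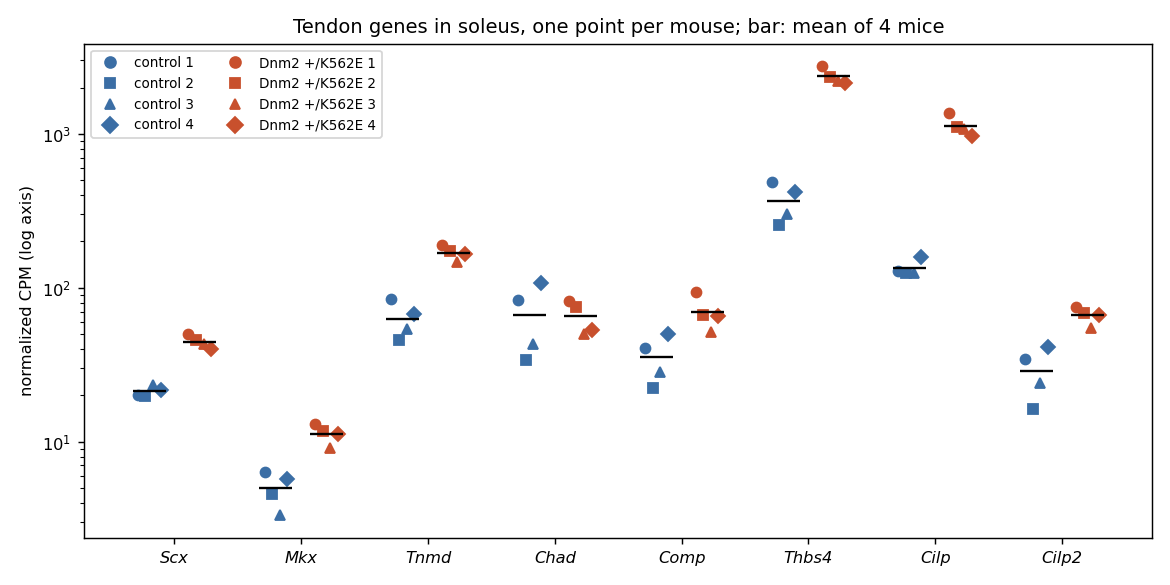
Normalized CPM (log axis) of the 8 tendon genes in each of 4 control and 4 Dnm2 +/K562E mice, with symbols for single mice and a bar for the mean of each genotype. The genotypes overlap for Chad and are separate for the other 7 genes, most widely for Cilp (controls up to 158.7, Dnm2 +/K562E mice from 970.8) and Thbs4.

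In the following, differences are Dnm2 +/K562E minus control on the log2 scale with their standard errors (SE). Scx, the early tendon factor, was at 20.1, 19.8, 23.4 and 21.7 CPM in controls 1 to 4 and at 49.8, 45.9, 43.2 and 39.8 CPM in Dnm2 +/K562E mice 1 to 4. The controls lay close together and every Dnm2 +/K562E mouse was well above them (log2 difference 1.07, SE 0.09, edgeR adjusted p = 4.69e-06). Mkx, the factor of later tendon growth, had the lowest level of the 8 genes, at 6.38, 4.60, 3.31 and 5.68 CPM in controls and 13.1, 11.7, 9.14 and 11.1 CPM in Dnm2 +/K562E mice. Control 3 was low and the groups did not overlap (log2 difference 1.18, SE 0.19, edgeR adjusted p = 5.45e-04). Both factors were thus higher, and the 95% intervals of their log2 fold changes overlapped (0.88 to 1.26 for Scx and 0.76 to 1.60 for Mkx). A difference between their changes was not tested.

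Tnmd, the membrane marker of tenocytes, was at 84.4, 45.7, 54.2 and 67.9 CPM in controls and at 188.4, 172.9, 147.6 and 166.5 CPM in Dnm2 +/K562E mice. Controls 1 and 4 were the highest controls and still far below every Dnm2 +/K562E mouse. The log2 difference was 1.42 (SE 0.16, edgeR adjusted p = 5.65e-05).

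Comp, which joins collagen fibrils, was at 40.8, 22.3, 28.2 and 50.0 CPM in controls and at 94.2, 66.3, 51.8 and 65.9 CPM in Dnm2 +/K562E mice. The groups nearly met, since control 4 lay just below Dnm2 +/K562E mouse 3, and Comp had the smallest increase of the 7 called genes (log2 difference 0.98, SE 0.24, edgeR adjusted p = 0.0073). Thbs4, the other pentameric thrombospondin of the group, was at 487.5, 256.5, 301.0 and 419.9 CPM in controls and at 2741, 2358, 2207 and 2137 CPM in Dnm2 +/K562E mice. Its lowest Dnm2 +/K562E mouse was thus several times its highest control (log2 difference 2.69, SE 0.19, edgeR adjusted p = 2.36e-06). The intervals of the log2 fold changes of Comp (0.44 to 1.51) and Thbs4 (2.27 to 3.10) did not overlap. The trimeric and other pentameric thrombospondins Thbs1, Thbs2 and Thbs3 were called higher too, with log2 fold changes of 1.54, 1.22 and 1.46.

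Cilp, an extracellular protein of cartilage and fibrous tissue that can bind TGF-beta, was at 128.2, 125.2, 124.2 and 158.7 CPM in controls and at 1366, 1110, 1068 and 970.8 CPM in Dnm2 +/K562E mice. It had the largest difference of the 8 genes, a log2 difference of 3.07 (SE 0.12, edgeR adjusted p = 1.03e-07). Its relative Cilp2 was at 34.2, 16.2, 23.9 and 41.1 CPM in controls and at 75.0, 68.8, 54.4 and 66.3 CPM in Dnm2 +/K562E mice. Cilp2 was called higher with a log2 difference of 1.20 (SE 0.23, edgeR adjusted p = 0.0018), and its interval (0.68 to 1.71) lay below that of Cilp (2.81 to 3.34). In controls 1 and 4 Cilp2 was high and in control 2 it was low, whereas Cilp was nearly the same in controls 1, 2 and 3.

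Chad, a leucine-rich repeat protein that binds collagen and cells, was at 83.7, 33.9, 42.8 and 106.8 CPM in controls and at 82.3, 75.0, 49.9 and 53.1 CPM in Dnm2 +/K562E mice. The Dnm2 +/K562E mice all fell within the range of the controls, which on a log scale was the widest of the 8 genes. The log2 difference was -0.04 (SE 0.32, edgeR adjusted p = 0.935), with a 95% interval from -0.74 to 0.67, so that a moderate difference in either direction was not detectable. Without control 4 the estimate was 0.28 (edgeR adjusted p = 0.459) and without control 2 it was -0.26 (edgeR adjusted p = 0.497). It was positive without control 1 (0.09), control 4, or Dnm2 +/K562E mouse 3 (0.07) or 4 (0.05), and negative without any other mouse, so single libraries decide its sign.

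Per kilobase of exon, the order of the levels changed between the genotypes. In controls Thbs4 was highest at 111.3 ± 32.3 CPM per kb (SD, n = 4), followed by Tnmd (46.6 ± 12.5), Chad (39.8 ± 20.4), Cilp (31.5 ± 3.88), Comp (11.9 ± 4.21), Scx (10.6 ± 0.815), Cilp2 (6.69 ± 2.55) and Mkx (1.22 ± 0.326). Among neighbours in this order, the ranges of the mice overlapped for Tnmd and Chad, Chad and Cilp, and Comp and Scx, so those steps are within the spread. In Dnm2 +/K562E mice Thbs4 stood at 717.8 ± 82.1 CPM per kb (SD, n = 4) and Cilp had moved to the second place at 265.4 ± 39.6, above Tnmd (124.8 ± 12.5) without overlap. Below them came Chad (38.7 ± 9.55), Comp (23.4 ± 5.99), Scx (22.3 ± 2.11), Cilp2 (15.3 ± 2.00) and Mkx (2.75 ± 0.399), of which Chad and Comp, and Comp and Scx, overlapped. Thbs4 and Cilp together made up 66.4% to 72.8% of the summed CPM of the 8 genes in controls and 88.5% to 90.2% in Dnm2 +/K562E mice. The summed level rose from between 524.3 and 885.4 CPM in controls to between 3510 and 4610 CPM.

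**Figure D2:**
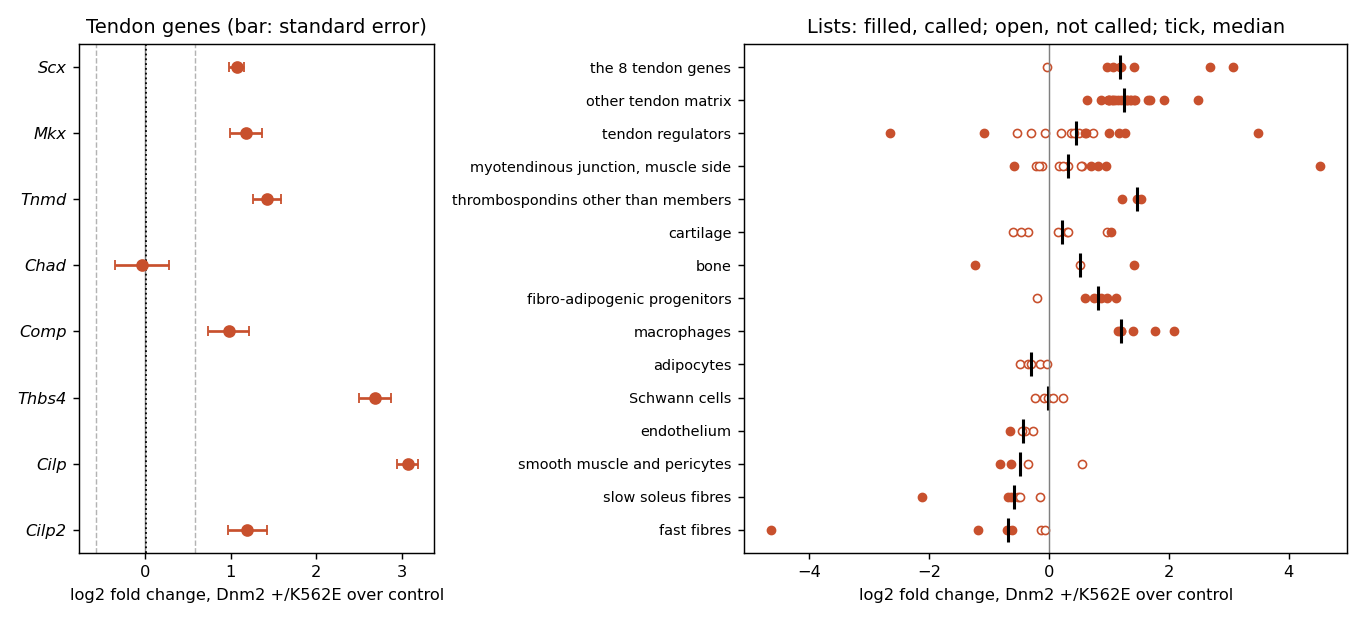
Log2 fold changes of Dnm2 +/K562E over control. The left panel gives the 8 tendon genes with standard errors (dashed lines at 0.58 in either direction, dotted line at the median of all tested genes), and the right panel gives every tested gene of the 15 lists, filled where called, with a tick at each list's median. Cilp (3.07) and Thbs4 (2.69) lie apart from the other tendon genes, and Chad lies at -0.04.

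The comparison of single mice asked whether the 8 genes also moved together among mice of the same genotype. Among the Dnm2 +/K562E mice, mouse 1 had the highest level of all 8 genes and mouse 2 the next highest of all 8, whereas mouse 1 was the highest of its genotype in 26.7% of all tested genes. Mouse 3 was lowest for 5 of the genes and mouse 4 for the other 3, beside 22.6% and 26.3% of all tested genes. Among the controls, control 4 was highest for 4 genes (25.5% of all tested genes) and second for the other 4. Control 2 was lowest for 6 of the 8 genes, while it was the lowest control for 22.1% of all tested genes. Control 1 was highest for Tnmd, Mkx and Thbs4. Scx was highest in control 3, and Mkx and Cilp were lowest there.

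The spread between mice was larger in controls for 6 of the genes. The SD of log2 CPM was 0.78 in controls and 0.36 in Dnm2 +/K562E mice for Chad, 0.59 and 0.20 for Cilp2, and 0.43 and 0.16 for Thbs4. It was also larger in controls for Comp, Mkx and Tnmd, and slightly smaller for Scx (0.11 and 0.14) and Cilp (0.17 and 0.21). Over all tested genes the median SD was 0.16 in controls and 0.14 in Dnm2 +/K562E mice. In controls Scx and Cilp therefore varied about as little as a typical gene, and the other 6 varied more than 82.1% or more of the genes. With 4 mice in each genotype the difference in spread was not tested.

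**Figure D3:**
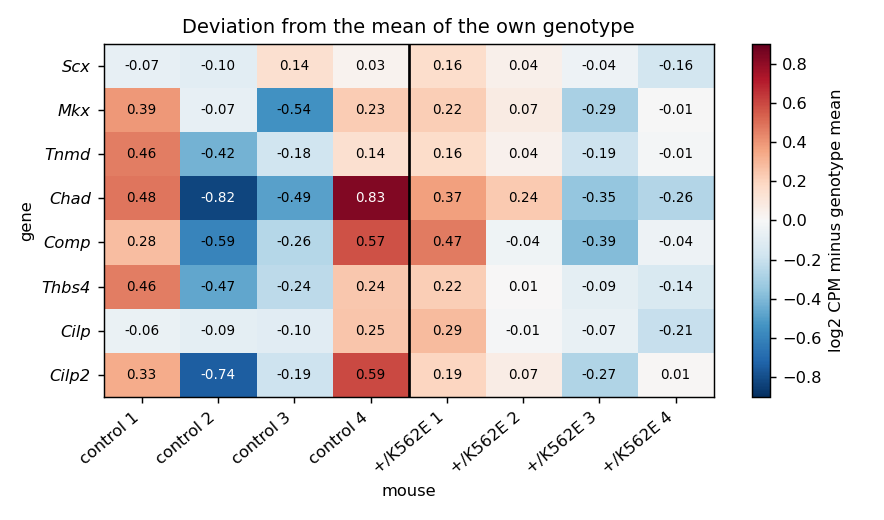
Log2 CPM of each tendon gene in each mouse minus the mean of its own genotype (colour scale and printed values), with controls left and Dnm2 +/K562E mice right of the line. Chad, Comp, Cilp2, Thbs4 and Tnmd are above the mean in controls 1 and 4 and below it in controls 2 and 3, and all 8 genes are above the mean in Dnm2 +/K562E mouse 1.

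Correlations were computed over the 8 mice after the mean of each genotype had been subtracted, because the genotype difference alone would make any 2 changed genes correlate. A correlation within 1 genotype of 4 mice was not computed. Of the 28 pairs of tendon genes, 27 had a positive Pearson r, with a median of 0.74 and a range from -0.16 (Scx with Mkx) to 0.97 (Tnmd with Thbs4). An r of at least 0.8 was reached in 10 pairs, all of them among Chad, Comp, Cilp2, Thbs4 and Tnmd. Of the 13993 tested genes outside the group, 2.89% reached this value with Chad, 2.84% with Thbs4, 2.66% with Cilp, 2.64% with Mkx, 2.48% with Tnmd, 2.37% with Comp, 2.33% with Cilp2 and 1.11% with Scx.

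The pairs that passed an adjustment over the 28 were Chad with Comp, Chad with Cilp2, and Comp with Cilp2. For Chad and Comp, r was 0.94 (exact permutation p = 0.0017, the smallest that exchanging mice within genotypes can give, adjusted p = 0.0486) and Spearman's rho was 0.95 (exact permutation p = 0.0035, adjusted p = 0.0324). For Chad and Cilp2, r was 0.95 (exact permutation p = 0.0035, adjusted p = 0.0486) and rho was 0.98 (exact permutation p = 0.0035, adjusted p = 0.0324). For Comp and Cilp2, r was 0.94 (exact permutation p = 0.0052, adjusted p = 0.0486) and rho was 0.98 (exact permutation p = 0.0035, adjusted p = 0.0324). Without the 2 mice farthest from the median, controls 2 and 4 in each case, r was 0.86, 0.93 and 0.92 in these pairs. Tnmd and Thbs4 had the highest r, 0.97 (exact permutation p = 0.0104, adjusted p = 0.0583), with a rho of 0.90 (exact permutation p = 0.0208, adjusted p = 0.0833), and r was 0.89 without controls 1 and 2. This pair did not pass the adjustment.

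Cilp and Scx followed the other genes less closely in value. Cilp had r between 0.39 (with Tnmd) and 0.75 (with Comp), and Scx had r between -0.16 and 0.63, its highest with Cilp (exact permutation p = 0.144, adjusted p = 0.212; rho 0.60, exact permutation p = 0.174, adjusted p = 0.221). Without Dnm2 +/K562E mice 1 and 4, the r of Scx with Cilp was 0.15, so that it rests on those 2 mice. The r of Cilp with Cilp2 (0.57, exact permutation p = 0.0903, adjusted p = 0.172) likewise fell to 0.12 without control 4 and Dnm2 +/K562E mouse 1. Without controls 1 and 2, however, the r of Cilp rose from 0.55 to 0.95 with Thbs4 and from 0.39 to 0.80 with Tnmd. It rose from 0.49 to 0.73 with Mkx without controls 1 and 3. Without controls 2 and 4 it fell from 0.71 to 0.61 with Chad and from 0.75 to 0.70 with Comp. The number of passing pairs depended on which mouse was left out, since no pair passed without control 4 or without any one of the Dnm2 +/K562E mice, while 4 to 8 pairs passed without control 1, 2 or 3. With 7 mice the smallest possible exact p is 0.0069, at which a single pair cannot pass the adjustment over the 28 pairs. These counts therefore cannot tell whether the correlations rest on single mice. The median r stayed between 0.71 and 0.81, and 10 to 14 pairs had an r of at least 0.8 whichever mouse was left out.

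**Figure D4:**
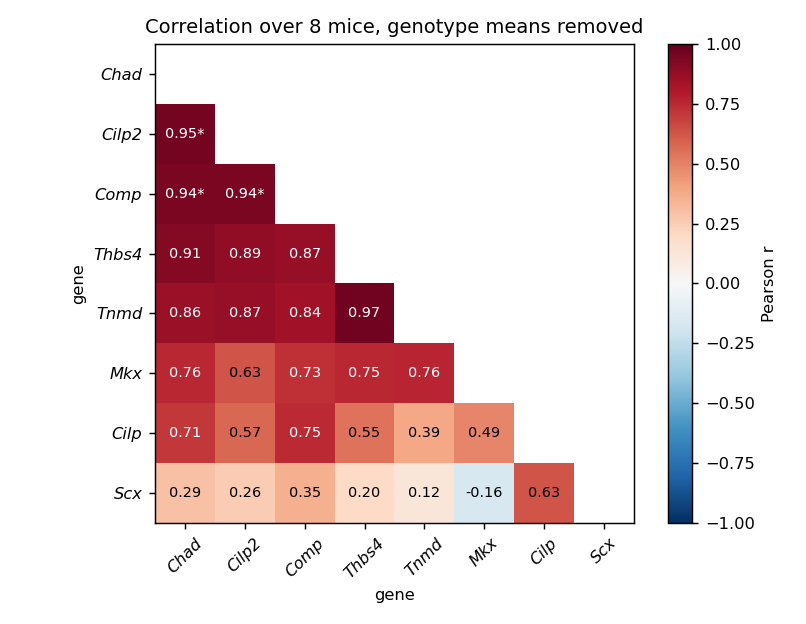
Pearson r of log2 CPM for the 28 pairs of tendon genes over 8 mice after subtraction of genotype means, with an asterisk at pairs with an adjusted exact permutation p under 0.05. Chad, Cilp2, Comp, Thbs4 and Tnmd form a block with r from 0.84 to 0.97, and Scx has the lowest values.

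Since Chad covaried with the other genes among mice but was not called between genotypes, each gene was also divided by Chad in the same mouse, a measure chosen after the values had been seen and free of library scaling. For Thbs4 this ratio was 5.82, 7.56, 7.02 and 3.93 in controls and 33.3, 31.4, 44.3 and 40.3 in Dnm2 +/K562E mice. For Cilp it was 1.53, 3.69, 2.90 and 1.49 in controls and 16.6, 14.8, 21.4 and 18.3 in Dnm2 +/K562E mice. For Comp it was 0.488, 0.658, 0.657 and 0.469 in controls and 1.14, 0.884, 1.04 and 1.24 in Dnm2 +/K562E mice. The ratio did not overlap between the genotypes for any of the 7 genes, although for Scx (highest control 0.584, lowest Dnm2 +/K562E mouse 0.605) and Mkx (0.136 and 0.156) the groups nearly touched. Over all other tested genes 5.21% had a ratio to Chad that was higher in every Dnm2 +/K562E mouse. Since the ratio subtracts the small log2 difference of Chad from that of each gene, it is not separate evidence for the genotype differences.

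**Figure D5:**
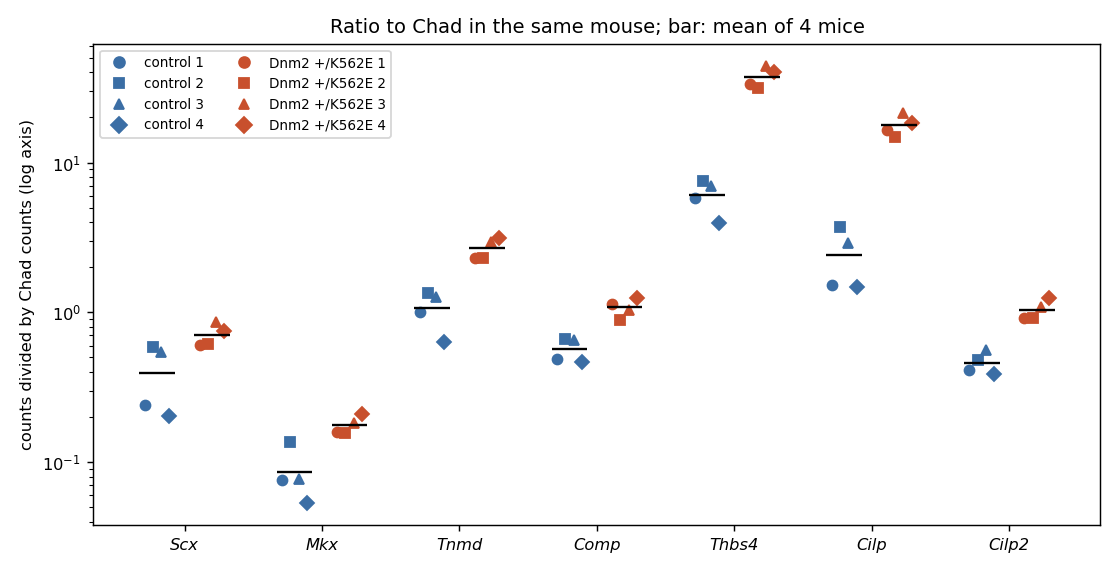
Counts of 7 tendon genes divided by the counts of Chad in the same mouse (log axis), with a bar for the mean of 4 mice. All 7 ratios are separate between the genotypes, with the narrowest gaps for Scx and Mkx.

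A wider list of matrix genes of tendon, chosen with earlier results of these data known, changed in the same direction. Of 20 further tendon matrix genes, 20 were called higher and none lower, with log2 fold changes whose median was 1.25 and which ran from 0.63 (Sparc) to 2.49 (Tnc, tenascin-C, an adhesive glycoprotein of tendon and of injured tissue). Sparc fell under the fold threshold without control 2 (0.56). The collagen-binding proteoglycan gene Fmod was at 428.9, 201.0, 244.5 and 484.6 CPM in controls and at 863.8, 774.2, 631.9 and 664.3 CPM in Dnm2 +/K562E mice. Controls 1 and 4 were again the high ones. Asporin, Aspn, rose with a log2 fold change of 1.92 and was nearly the same in all controls (99.7 to 114.7 CPM). Cilp was nearly the same in controls 1 to 3 only. The main tendon collagen genes Col1a1 and Col1a2 both had log2 fold changes of 1.00. Whether the RNA of the listed genes came from tendon or from cells within the muscle was not tested. The paper reports more widespread staining for extracellular matrix in sections of the mutant soleus. It also weighed soleus muscles together with the calcaneal tendon, and these were lighter in mutant males of the age sequenced. Whether tendon stayed on the muscles taken for RNA is not stated in its methods.

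Of 19 genes of tendon regulation, 16 were tested, of which 6 were called higher, 2 lower and 8 neither. The median log2 fold change was 0.46. The higher ones were the ligands Tgfb2 (1.28), Tgfb3 (0.62) and Gdf5 (3.49), the receptor Tgfbr2 (0.60), Egr2 (1.17) and Eya2 (1.01). Gdf5 was near the limit of detection in controls, at 0.0894, 0.713, 0.0672 and 0.353 CPM, against 2.02 CPM or more in every Dnm2 +/K562E mouse, and its difference was 4.33 without control 2. Tgfb3 fell just under the fold threshold without control 3 (0.578), and Tgfbr2 without control 1, control 2 or Dnm2 +/K562E mouse 1 (0.558 to 0.578). Eya1 (-1.08) and Mstn (-2.65) were called lower, although Mstn, the muscle growth inhibitor myostatin, was at 8.80 CPM in control 4 and between 0.99 and 2.02 in the other controls. Without control 4 the difference of Mstn was -1.51 (edgeR adjusted p = 0.0101). Egr1, an immediate early gene that can drive tendon genes, ranged from 11.2 to 78.5 CPM in controls and was not called (log2 fold change 0.74), but was called higher without control 1 (1.81).

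On the muscle side of the junction, 4 of 13 genes were called higher, 1 lower and 8 neither, with a median log2 fold change of 0.31. Col22a1, the collagen found at the myotendinous junction, was at 100.9, 69.3, 84.4 and 84.0 CPM in controls and at 167.4, 124.8, 116.9 and 142.9 CPM in Dnm2 +/K562E mice (log2 difference 0.70, SE 0.13, edgeR adjusted p = 0.0012). The actin-binding stress protein Xirp2 (0.96), the laminin chain Lama2 (0.82) and the stress-responsive Ankrd1 (4.52) were also called higher, and Nrap, which anchors actin at the fibre end, was called lower (-0.59), though not without control 3 or Dnm2 +/K562E mouse 1 or 4 (-0.57 to -0.51). Integrin genes Itga7 (0.55) and Itgb1 (0.53) had an adjusted p under 0.05 and were under the fold threshold, which Itga7 reached without Dnm2 +/K562E mouse 2.

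Markers of other tissues were read beside these results. Of 12 cartilage genes 8 were tested and 1 (Col11a1, 1.03) was called higher (2 without control 1). Acan stayed at or below 0.589 CPM in every mouse, and Matn1 and Snorc were at 0 in all. Others were detected in every mouse, among them Col11a1 (25.5 to 91.4 CPM), Col11a2 (22.7 to 40.5), Sox9 (2.95 to 14.2) and Col2a1 (2.49 to 4.77). Of 6 bone genes 3 were tested, and Runx2 (1.42) was called higher and Phex (-1.23) lower, Phex no longer without control 3, control 4, or Dnm2 +/K562E mouse 3 or 4. The defining bone genes Ibsp and Sp7 stayed at or below 0.186 CPM. Of 6 genes of fibro-adipogenic progenitors, the fibroblasts between muscle fibres, 5 were called higher, with a median of 0.81, and 3 without control 2, control 3, or Dnm2 +/K562E mouse 2 or 3. All 7 macrophage genes were called higher (median 1.20). The summed macrophage level was 72.8 to 135.5 CPM in controls and 179.3 to 295.6 CPM in Dnm2 +/K562E mice, with the highest sums in control 4 and Dnm2 +/K562E mouse 1. The summed level of the 20 tendon matrix genes was highest in these same mice, at 7472 and 15047 CPM. The sum of the 8 tendon genes was highest in control 1 (885.4 CPM, control 4 at 871.6) and Dnm2 +/K562E mouse 1 (4610). In control 1 the macrophage sum was 76.4 CPM. The fibro-adipogenic sum was highest in control 4 (540.1 CPM) and Dnm2 +/K562E mouse 2 (769.6). None of 5 adipocyte genes was called, and their sum ranged from 88.1 to 470.5 CPM in controls. The slow fibre list had 3 of 6 genes lower and the fast fibre list 5 of 7, with medians of -0.58 and -0.69. The part of these cell types in the tendon gene results was not tested.

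For each tendon gene, the 3 other genes with the most similar values over the 8 mice, after subtraction of genotype means, were listed as a description. For Chad they were Fmod (r = 0.99), the secreted Serpinf1 (0.99) and Sparc (0.98). For Cilp2 they were Upf1 (0.99), a factor of nonsense-mediated RNA decay that was not called (log2 fold change -0.05), Fmod (0.97) and the lysophosphatidic acid receptor gene Lpar1 (0.96). For Comp they were Mxra8, Col16a1 and Ecm2 (0.98 to 0.99), all genes of matrix or of cell adhesion. For Cilp they were the collagen genes Col6a1 and Col5a2 and the protease gene Mmp19 (0.97 to 0.98). Those of Tnmd (Wrn, Crispld1 and Ube2e2), Thbs4 (Gria3, Wrn and Ptpn13), Mkx (Arhgef40, Vit and Tbl2) and Scx (Rbms3, Smarcc1 and Tmem50b) had r between 0.94 and 0.99. Serpinf1, called higher with a log2 fold change of 1.11, thus followed Chad among mice but, unlike Chad, was called between genotypes, as were Fmod (1.11) and Sparc (0.63).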

How the data were processed

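RNA was sequenced from soleus muscles of 4 control and 4 Dnm2 +/K562E mice. The authors trimmed reads with Trimmomatic 0.33, aligned them to GRCm38.p5 with STAR 2.5.1b and counted them per gene with featureCounts, and the deposited values are these raw counts. Reads shared by overlapping genes were credited to all of them. Use of the strand is not given in the sources used here. The methods describe poly A enrichment, the labels a total RNA kit.

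Identifiers were matched to GENCODE M21 (22647 of 22880). Genes passing filterByExpr (minimum count 10, minimum total 15) were tested with edgeR 4.0.16 (TMM, quasi-likelihood test, Benjamini-Hochberg over 14001 genes) in R 4.3.3. Correlations used log2 CPM with a prior count of 2 and exact two-sided permutation within genotypes (numpy 2.4.6, scipy 1.17.1). The fits were tested on simulated data. Mice of one genotype differed beyond sampling noise (lowest chi-square 13.0 times its degrees of freedom, 12 pairs). Same-numbered mice are different animals, so no block was used. Gene lists and the named genes (the 8 genes, list genes, and the 3 most similar genes to each with a mean of at least 5 CPM) were chosen with earlier results of these data known. Alternatives were edgeR's exact test, DESeq2 1.42.0, other scaling, filters, prior counts and thresholds, replicate blocks, rank correlation and leaving out each mouse.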

Additional observations from a re-analysis of the deposited data

Results flagged for a closer look

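Cilp in control 4, at 158.7 normalized CPM, lay apart from controls 1 to 3, which were between 124.2 and 128.2 CPM. The gap was 0.885 of the range of the controls, above the critical value of Dixon's test for 4 samples. Among the 16 groups examined (8 genes in each genotype), chance alone would single out about 1 in 20. Control 4 was below the lowest Dnm2 +/K562E mouse (970.8 CPM), and Cilp was called higher without it as well.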

How the results depend on the processing

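The count of tendon genes called, 7 of 8, was the same under every alternative run, and Chad was called under none. The log2 fold change ran from 2.97 to 3.29 for Cilp and from 2.55 to 2.90 for Thbs4, highest with library size alone. That scaling moved the median over all genes from 0.01 to 0.22 and the share of higher calls from 62.2% to 83.6%. Chad changed sign, with 0.17 under library size alone and -0.26 to 0.28 when each mouse was left out. Same-numbered mice had mean correlations of deviations of -0.11 (titles) and -0.03 (descriptions). With these numbers as a replicate block, Chad was at 0.080 and 0.084, and 7 tendon genes were called in both. Without a fold threshold 6139 of all tested genes were called instead of 2905. Of the 28 pairs, 3 passed as reported, 5 with library size alone, and 0 to 8 when each mouse was left out. With a mouse left out, a single pair could not pass. Among the other lists, 24 counts moved by over 1.5 times. With library size alone, calls fell from 5 to 2 for fast fibres, from 3 to 1 for slow fibres and from 1 to 0 for endothelium. The cause was not tested. Depth limits Mkx most, with a lowest count of 148.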

Other observations

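Of 4 endothelial genes, 1 (Kdr, a receptor for vascular endothelial growth factor, log2 fold change -0.64) was called lower (0 without Dnm2 +/K562E mouse 2), and the others lay between -0.46 and -0.26. Of 4 genes of smooth muscle and pericytes, Acta2 (-0.82) and Myh11 (-0.63) were called lower (1 gene without control 2), and Rgs5 (-0.35) and the pericyte gene Cspg4 (0.56) were not called. Cspg4 was called higher without control 1 or Dnm2 +/K562E mouse 1 or 4 (0.62 to 0.67). None of 5 Schwann cell genes was called, and their summed level was 242.2 to 279.1 CPM in controls and 235.9 to 285.0 CPM in Dnm2 +/K562E mice.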
